A study of Homo sapiens with 2 samples.

Results

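The genes described here are 10 human genes of purine signaling at the cell surface, taken by symbol from the 21382 genes of an RNA-Seq table. They are the ATP-gated channels P2RX4, P2RX5 and P2RX7, the nucleotide receptors P2RY1, P2RY2, P2RY6 and P2RY11, the surface enzymes ENTPD2 and NT5E, and the adenosine receptor ADORA2B. The genes were picked by name for these functions, with earlier results of these data known. RNA came from untreated cultures of 2 established prostate cancer lines, RC77 T/E as well as MDA PCa 2b, each sequenced as 1 library. MDA PCa 2b is a line from a bone metastasis and was grown in F-12 medium with 20% FBS, cholera toxin at 25 ng/ml, mouse EGF at 10 ng/ml, hydrocortisone and insulin. RC77 T/E is an epithelial line from a prostate tumor, and was grown in keratinocyte medium with EGF and bovine pituitary extract. The cell line and its medium therefore cannot be told apart in any difference below. With 1 library per cell line no value has a replicate error, no test was made, and the order of any neighboring levels cannot be set against a spread.

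Platelets store ATP and ADP in their dense granules and release both when activated, and a cancer cell beside them can sense these nucleotides in several ways. P2X receptors are cation channels opened by ATP, and P2Y receptors are G protein-coupled receptors for ATP, ADP, UTP or UDP. Enzymes on the cell surface then shorten the nucleotides: the ENTPD family takes ATP and ADP down toward AMP, and NT5E, better known as CD73, turns AMP into adenosine. Adenosine acts on its own G protein-coupled receptors, ADORA1, ADORA2A, ADORA2B and ADORA3, and is removed by uptake, deamination or phosphorylation. The comparison of the cell lines shows for which of these steps each one held the RNA.

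Expression was deposited as TPM, transcript abundance scaled within a library and per transcript length, so that genes can be compared with each other within a library. Depth is unknown because TPM keeps no read numbers, and no limit of detection can be given for a value near 0. Many values of 1 TPM or more lost their decimal mark in the deposited table. The mark was put back from the mean and standard error given in the same row, which left 1 position for 5 of the 10 genes and 2 or 3 positions for the other 5. Where it is open, each TPM that matched is given. The ratio between the cell lines is the same at every position, and so is whether a gene reaches 1 TPM.

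Both lines were first set against markers of their cell type. Of 7 luminal prostate markers, 7 reached 1 TPM in MDA PCa 2b compared with 3 in RC77 T/E, where KLK3 was listed at 0 and TMPRSS2 was at 0.108 TPM against 482.9 TPM in MDA PCa 2b. Of 5 basal markers, 3 reached 1 TPM in MDA PCa 2b against 4 in RC77 T/E, and KRT5 was at 4027 TPM in RC77 T/E and 0.00435 TPM in MDA PCa 2b. None of the 6 platelet markers reached 1 TPM, with TUBB1 the highest at 0.659 TPM in RC77 T/E. Because P2X and P2Y receptors are also abundant on leukocytes, 8 leukocyte markers were read as well. CD68 was at 37.9 TPM and CD14 at 4.92 TPM in RC77 T/E, against 0.663 and 0.0730 TPM in MDA PCa 2b, while PTPRC, CD3E, CD79A, AIF1 and LYZ were at most 0.501 TPM in either line. PTPRC, which defines leukocytes, was listed at 0 in RC77 T/E, with 0.0113 TPM in MDA PCa 2b.

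Of the 10 genes, 6 reached 1 TPM in MDA PCa 2b (49.6% of all 21382 genes did) and 8 reached it in RC77 T/E (52.8% of all genes). The same 6 genes (P2RX4, P2RX5, P2RY1, P2RY11, ENTPD2 and ADORA2B) reached 1 TPM in both lines. NT5E and P2RY2 did so in RC77 T/E alone, and P2RX7 and P2RY6 in neither. On the scale of log2(TPM + 1) the lines differed most in NT5E, ADORA2B and P2RY2, and least in P2RX5.

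**Figure D1:**
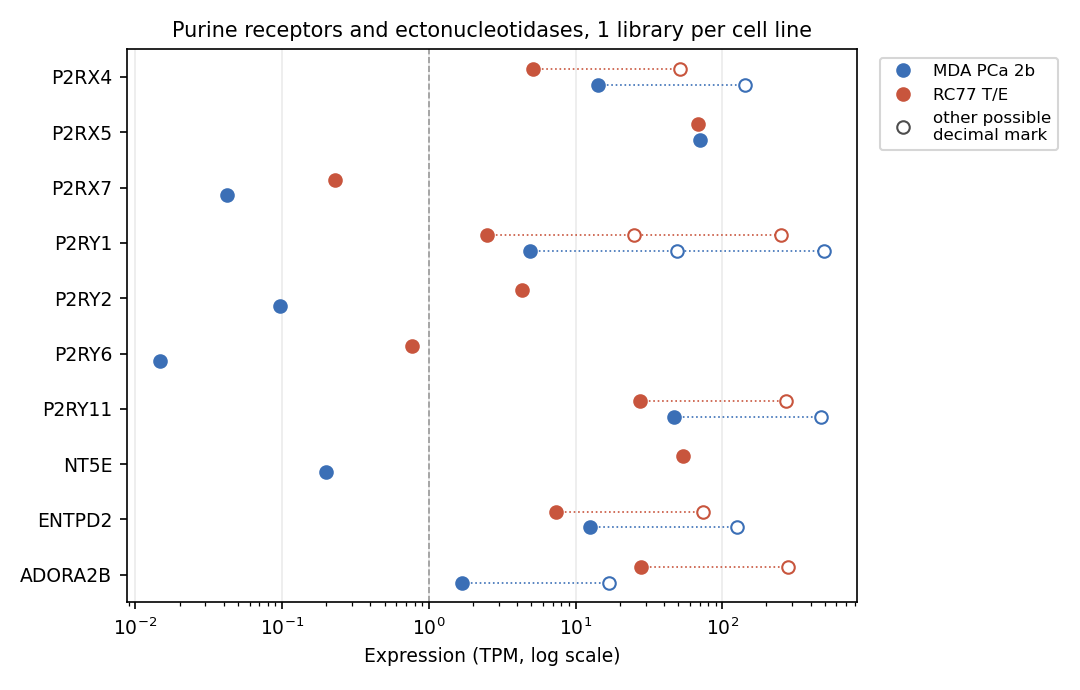
Expression of the 10 genes in TPM on a log scale, with MDA PCa 2b in blue and RC77 T/E in red, 1 library each. Filled points are the value with the decimal mark at its only or lowest position, open points joined by dotted lines are the other positions, and the dashed line marks 1 TPM. NT5E lies at 0.198 TPM in MDA PCa 2b versus 54.2 TPM in RC77 T/E, while the points of P2RX5 nearly coincide.

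NT5E (ENSG00000135318), the enzyme that makes adenosine from AMP, showed the largest difference of the 10 genes. The gene spans 85449584 to 85495791 of chromosome 6 (GRCh38). NT5E was at 0.198 TPM in MDA PCa 2b versus 54.2 TPM in RC77 T/E, with the decimal mark fixed in both. The RC77 T/E value was 274 times that of MDA PCa 2b, a ratio that rests on a value near 0. In MDA PCa 2b 12081 genes were higher than NT5E, whereas in RC77 T/E at most 6136 were. On the scale of log2(TPM + 1), which damps ratios against low values, the difference of RC77 T/E minus MDA PCa 2b was 5.53, and 1.28% of the 11624 genes averaging 1 TPM or more had a log2 ratio as large or larger.

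ADORA2B (ENSG00000170425; chromosome 17, 15945130 to 15975746), a receptor for adenosine of low affinity that raises cyclic AMP, was also higher in RC77 T/E. It was at 1.68 or 16.8 TPM in MDA PCa 2b versus 28.0 or 280.3 TPM in RC77 T/E, 16.7 times as high in the latter at either position. The log2(TPM + 1) difference was 3.44 at the lowest position of the mark and 3.98 at the highest. The study's published copy of these values carried the lowest position.

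ENTPD2 (ENSG00000054179; chromosome 9, 137048107 to 137054061), an ectonucleotidase with a strong preference for ATP over ADP, was present in both lines. It was at 12.5 or 125.3 TPM in MDA PCa 2b versus 7.35 or 73.5 TPM in RC77 T/E, and thus 1.70 times as high in MDA PCa 2b. The difference did not reach 2-fold. NT5E and ENTPD2 therefore differed in opposite directions. The ratio of NT5E to ENTPD2 within a library was higher by a factor of 467 in RC77 T/E. No scaling of the libraries can change this factor, but it rests on NT5E near 0 in MDA PCa 2b (0.198 TPM). ENTPD2 overlaps the antisense transcript AL807752.4 over 714 bases. The libraries kept the strand, but no source used here says whether quantification did, so reads of both strands may be mixed.

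The promoters of the genes that passed 2-fold are shown so that the sequence upstream of these differences can be read. RefSeq promoter windows of GRCh38.p14, from 250 bases before to 50 after the annotated start, matched 7 of the 10 genes, and P2RX5, P2RY2 and P2RY6 were not among them. NT5E and ADORA2B were higher in RC77 T/E and P2RX4 was higher in MDA PCa 2b. The windows are chr6:85449833-85450132 for NT5E, chr17:15944880-15945179 for ADORA2B and chr12:121209879-121210178 for P2RX4, all on the plus strand and written 5′ to 3′. Capitals mark GC boxes (GGGCGG, either strand) and half-sites of the cyclic AMP response element (TGACG, either strand), which do not overlap here.
NT5E: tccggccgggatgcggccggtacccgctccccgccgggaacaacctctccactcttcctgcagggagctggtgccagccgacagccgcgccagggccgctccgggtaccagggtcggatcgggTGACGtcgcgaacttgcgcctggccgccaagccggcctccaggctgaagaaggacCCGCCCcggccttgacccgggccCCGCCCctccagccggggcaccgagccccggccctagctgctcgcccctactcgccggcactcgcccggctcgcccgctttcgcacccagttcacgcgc
ADORA2B: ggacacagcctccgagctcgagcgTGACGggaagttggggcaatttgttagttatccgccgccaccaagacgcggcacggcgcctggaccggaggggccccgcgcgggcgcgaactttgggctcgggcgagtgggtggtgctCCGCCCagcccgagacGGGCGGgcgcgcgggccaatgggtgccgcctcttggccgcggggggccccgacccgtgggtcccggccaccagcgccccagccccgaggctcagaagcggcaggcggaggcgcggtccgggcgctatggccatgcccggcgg
P2RX4: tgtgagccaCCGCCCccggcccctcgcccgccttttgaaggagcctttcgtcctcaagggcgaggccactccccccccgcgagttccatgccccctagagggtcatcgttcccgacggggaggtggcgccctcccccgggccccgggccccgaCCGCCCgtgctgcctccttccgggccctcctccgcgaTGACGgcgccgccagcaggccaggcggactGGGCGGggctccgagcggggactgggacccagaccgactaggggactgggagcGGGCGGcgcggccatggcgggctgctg
All 3 windows hold 1 TGACG half-site, a motif found in 25.0% of the 27305 promoters of the same length. GC boxes number 2 in NT5E, 2 in ADORA2B and 4 in P2RX4, and 44.6% of all promoters hold at least 1. The windows are rich in CG dinucleotides, with 37 in NT5E, 41 in ADORA2B and 33 in P2RX4 against a median of 14 over all promoters. TGACG and the GC box each hold a CG, and the shares over all promoters were not matched for CG. They therefore cannot show whether either motif is more frequent here. No AP-1 motif (TGANTCA) and no TATAAA occurs in these 3 windows, motifs that 7.76% and 12% of all promoters hold. Each match is only a description of the letters in the window. The RefSeq start of NT5E lies 499 bases inside the start given in the deposited table, that of P2RX4 64 bases, and that of ADORA2B is the same.

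Among the G protein-coupled nucleotide receptors, P2RY2 (ENSG00000175591; chromosome 11, 73218281 to 73242427) differed most on the log2(TPM + 1) scale. P2RY2 responds to ATP and UTP through Gq and calcium release. It was at 0.0974 TPM in MDA PCa 2b versus 4.31 TPM in RC77 T/E, with the mark fixed. The RC77 T/E value was 44.3 times as high, a ratio that rests on a value near 0. The log2(TPM + 1) difference was 2.28, and 8.19% of genes had one as large. P2RY6 (ENSG00000171631), a receptor for UDP, lies on the same chromosome from 73264498 to 73305103, with 22070 bases between it and P2RY2. P2RY6 was at 0.0147 TPM in MDA PCa 2b versus 0.770 TPM in RC77 T/E, a ratio of 52.3 between low values. P2RY6 stayed under 1 TPM in both lines and was not counted in the comparison of ratios.

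P2RY1 and P2RY11 went the other way, with smaller ratios. P2RY1 (ENSG00000169860; chromosome 3, 152835131 to 152841439), an ADP receptor that platelets also carry, was at 4.91, 49.1 or 490.7 TPM in MDA PCa 2b versus 2.50, 25.0 or 250.2 TPM in RC77 T/E. It was higher by a factor of 1.96 in MDA PCa 2b, and its log2(TPM + 1) difference lay between -0.75 and -0.97 depending on the mark. The ratio of P2RY2 to P2RY1 within a library, an ATP and UTP receptor over an ADP receptor, was higher by a factor of 86.8 in RC77 T/E. That factor rests on P2RY2 near 0 in MDA PCa 2b (0.0974 TPM).

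P2RY11 (ENSG00000244165; chromosome 19, 10111693 to 10115372) is a receptor for ATP that couples to both calcium and cyclic AMP. It was at 47.0 or 470.2 TPM in MDA PCa 2b versus 27.4 or 274.0 TPM in RC77 T/E, 1.72 times as high in MDA PCa 2b. It was the highest of the P2Y receptors in both lines at the lowest positions of the mark, but this level may not be that of the receptor alone. The gene PPAN, which serves ribosome assembly, ends 97 bases inside P2RY11 on the same strand, and a readthrough gene, PPAN-P2RY11, shares 3243 bases with it. Neither was analysed here under a name of its own, so reads of PPAN, of the readthrough and of P2RY11 cannot be told apart. On the opposite strand EIF3G overlaps P2RY11 by 356 bases, at 13.4 or 134.2 TPM in MDA PCa 2b versus 9.57 or 95.7 TPM in RC77 T/E.

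Of the ATP-gated channels, P2RX5 was the most even between the lines. P2RX5 (ENSG00000083454; chromosome 17, 3672199 to 3696240) measured 71.0 TPM in MDA PCa 2b versus 67.9 TPM in RC77 T/E, with the mark fixed. The log2(TPM + 1) difference was -0.06, and it became 0.09 when centred on the median of all genes, so that no direction can be given. P2RX5 shares 23996 bases on its own strand with the readthrough gene P2RX5-TAX1BP3, which was not analysed here under its own name, and reads of both cannot be told apart.

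P2RX4 (ENSG00000135124; chromosome 12, 121210065 to 121234106), a channel of both the surface and lysosomes, was higher in MDA PCa 2b. It was at 14.3 or 143.0 TPM there and at 5.14 or 51.4 TPM in RC77 T/E, 2.78 times as high in MDA PCa 2b. The log2(TPM + 1) difference was -1.32, beyond 2-fold, and 13.1% of genes had one as low or lower. P2RX7 (ENSG00000089041), the channel that opens a large pore at high ATP, lies 22032 bases before P2RX4, from 121132819 to 121188032. P2RX7 was at 0.0420 TPM in MDA PCa 2b versus 0.228 TPM in RC77 T/E, 5.44 times as high in the latter but under 1 TPM in both. A pseudogene, Z98941.1, lies within P2RX7 over 100 bases of the same strand.

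Over the 8 genes averaging 1 TPM or more, 3 (P2RY2, NT5E and ADORA2B) were higher by 2-fold or more in RC77 T/E on the log2(TPM + 1) scale, where 19.4% of 11624 genes were. P2RX4 alone was at least 2-fold higher in MDA PCa 2b, where 20.0% of genes were, and 4 stayed under 2-fold. NT5E and P2RY2 reached this mean only through RC77 T/E and so had to differ, and the counts describe the list without being evidence for it. The median log2 ratio of the 8 genes was -0.38, beside -0.15 over the 11624 genes, but without the filter on low values it was 0.086 over the 10 genes, beside -0.013 over all genes. Relative to the median of the 11624 genes the ratio was 5.68 for NT5E, 3.59 for ADORA2B, 2.43 for P2RY2 and -1.16 for P2RX4, and it lay between -0.60 and 0.09 for the other 4. The summed level of the 8 leukocyte markers moved with the RC77 T/E side, from 1.46 TPM in MDA PCa 2b to 43.0 TPM, most of it CD68. Its part in the ratios was not tested.

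**Figure D2:**
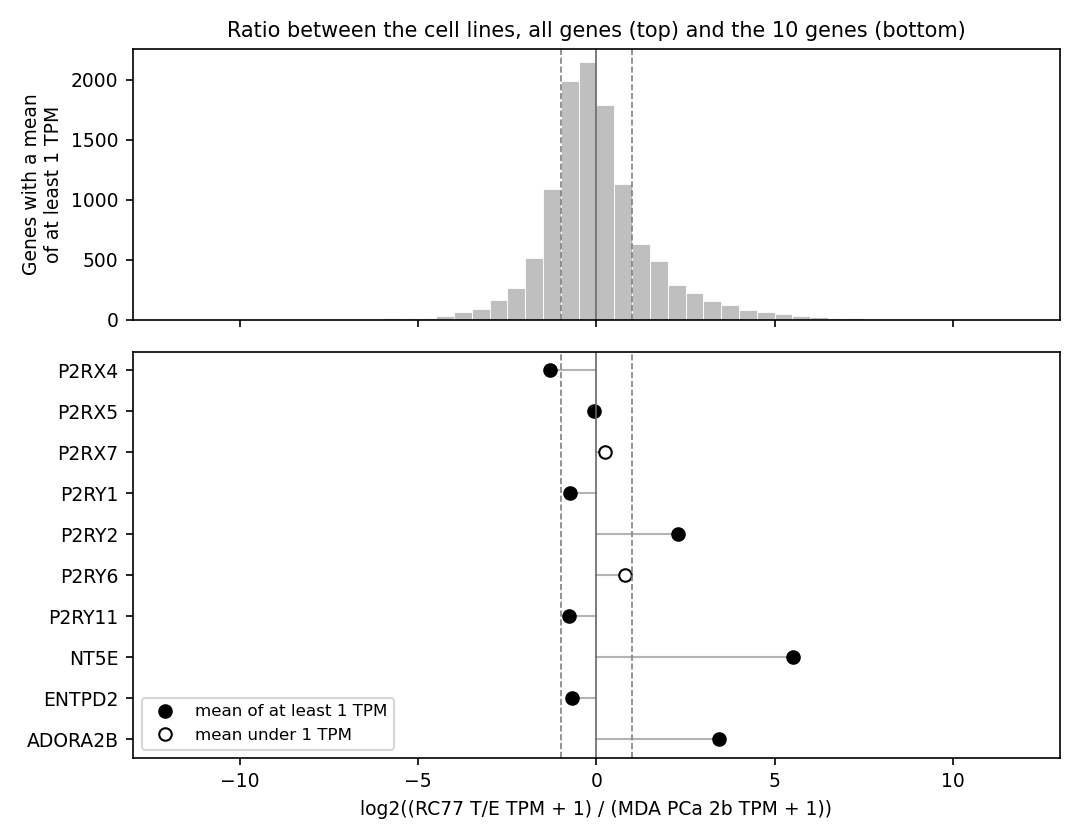
Top, the number of genes averaging 1 TPM or more in each interval of log2((RC77 T/E TPM + 1) / (MDA PCa 2b TPM + 1)). Bottom, the same ratio for each of the 10 genes with open decimal marks at their lowest position, as filled points where the mean is at least 1 TPM and open points otherwise. The dashed lines mark 2-fold. NT5E at 5.53, ADORA2B at 3.44 and P2RY2 at 2.28 lie past the line on the RC77 T/E side, and P2RX4 at -1.32 on the MDA PCa 2b side.

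The rest of the P2 receptors were low in both lines. Of the 7 P2X genes, 2 reached 1 TPM in MDA PCa 2b (49.6% of all genes did) compared with 3 in RC77 T/E (52.8%). The third was P2RX6 at 1.87 TPM, which was listed at 0 in MDA PCa 2b. P2RX1, the ATP channel of platelets, was listed at 0 in RC77 T/E, with 0.00374 TPM in MDA PCa 2b. P2RX2 was at 0.159 and 0.0146 TPM, and P2RX3 was listed at 0 in both. Of the 8 P2Y genes, 2 and 3 were at 1 TPM or more, beside the same shares of all genes. P2RY12, the ADP receptor typical of platelets, was listed at 0 in MDA PCa 2b and was at 0.0155 TPM in RC77 T/E. P2RY4, a UTP receptor, was at 0.0439 and 0.187 TPM, and P2RY13 and P2RY14 were listed at 0 in both lines.

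**Figure D3:**
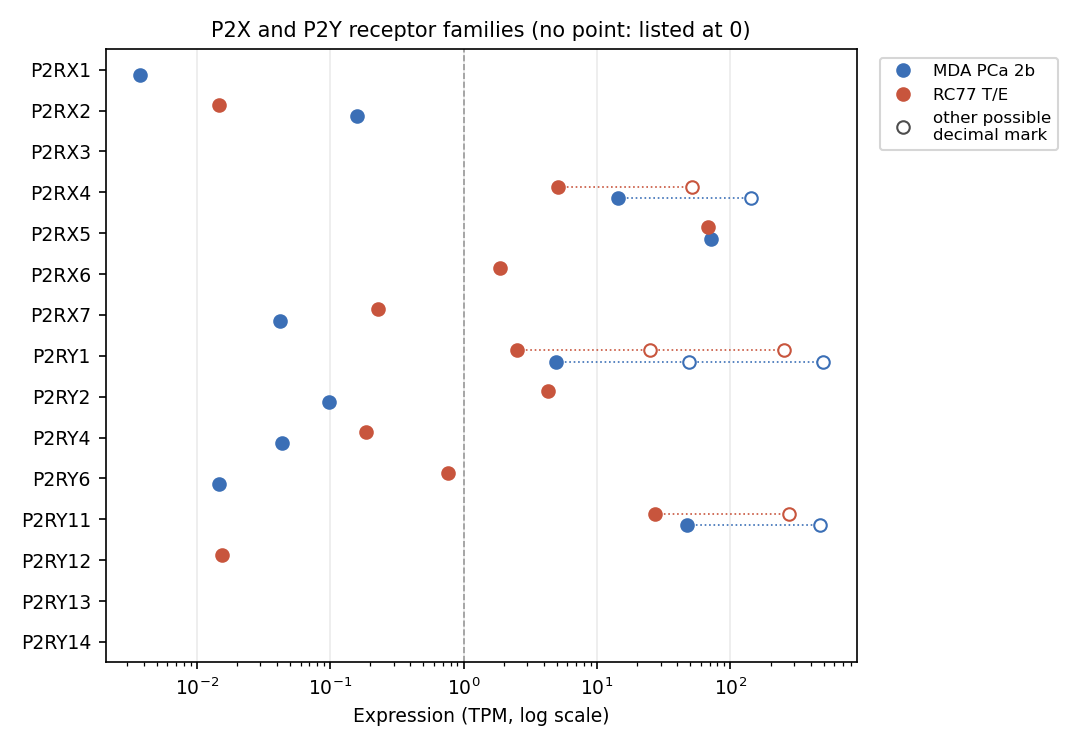
Expression of the 7 P2X and 8 P2Y receptor genes in TPM on a log scale, MDA PCa 2b in blue and RC77 T/E in red, 1 library each. Open points are other possible positions of the decimal mark, the dashed line marks 1 TPM, and a gene listed at 0 has no point. P2RX5 and P2RY11 lead both families at the lowest positions, and P2RY12 reaches 0.0155 TPM.

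The other adenosine receptors did not follow ADORA2B. ADORA2A, the high-affinity receptor that also raises cyclic AMP, was at 46.9 or 469.5 TPM in MDA PCa 2b versus 6.49 or 64.9 TPM in RC77 T/E, 7.24 times as high in MDA PCa 2b. The study's published copy of these values carried the lowest position of the mark for both ADORA2A and ADORA2B. At the lowest positions ADORA2A was the higher of both receptors in MDA PCa 2b and ADORA2B in RC77 T/E. The ratio of ADORA2B to ADORA2A within a library was higher by a factor of 120.8 in RC77 T/E. ADORA1, which lowers cyclic AMP, was at 1.52 TPM in MDA PCa 2b versus 0.338 TPM in RC77 T/E, and ADORA3 was at most 0.0264 TPM.

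Among 9 surface enzymes that cut extracellular nucleotides, 4 reached 1 TPM in MDA PCa 2b compared with 4 in RC77 T/E. Of all genes, 49.6% did so in the former line and 52.8% in the latter. ENTPD1, or CD39, which takes ATP and ADP to AMP, was at 3.97 and 2.91 TPM, and ENTPD3 was at 1.56 and 2.32 TPM, both under 2-fold. RNA for the step ahead of NT5E was therefore present in both lines. ENPP3, which cuts ATP straight to AMP, was at 2.96 TPM in MDA PCa 2b versus 0.0574 TPM in RC77 T/E. ENTPD8, ENPP1, ALPL and CD38 were at most 0.528 TPM in either line.

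**Figure D4:**
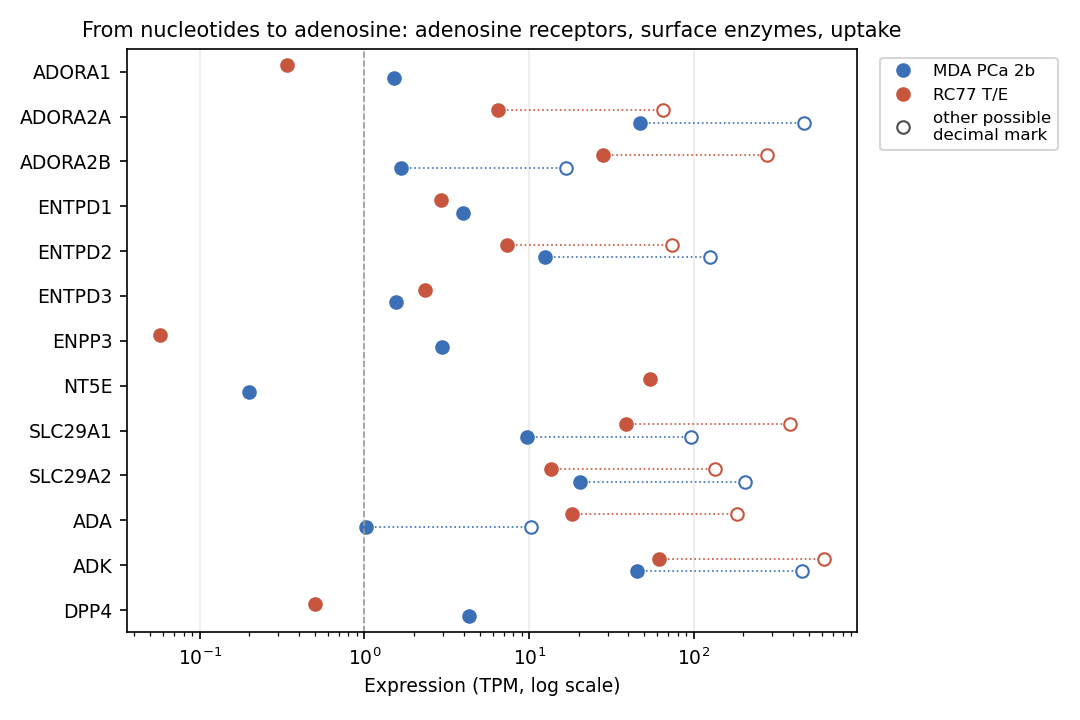
Adenosine receptors, surface enzymes that cut nucleotides, and genes of adenosine uptake and removal that reached 1 TPM in at least 1 line, in TPM on a log scale, MDA PCa 2b in blue and RC77 T/E in red. Open points are other possible positions of the decimal mark and the dashed line marks 1 TPM. NT5E, ADORA2B, ADA and SLC29A1 lie further right in RC77 T/E, and ADORA2A, ENPP3 and DPP4 in MDA PCa 2b.

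Genes that take adenosine away were split as well. Of 8 analysed, 5 had a mean of at least 1 TPM and 3 had a lower mean. Of those 5, 2 were higher by 2-fold or more in RC77 T/E, beside 19.4% of all genes with such a mean. In MDA PCa 2b 1 was, beside 20.0%, and this gene, DPP4, reached the mean only through MDA PCa 2b. ADA, adenosine deaminase, was at 1.03 or 10.3 TPM in MDA PCa 2b versus 18.2 or 182.3 TPM in RC77 T/E, 17.7 times as high. The adenosine transporter SLC29A1 was at 9.66 or 96.6 TPM against 38.7 or 386.5 TPM, again higher in RC77 T/E. DPP4, which anchors adenosine deaminase at the surface, was at 4.31 TPM in MDA PCa 2b versus 0.498 TPM in RC77 T/E. ADK, the kinase that returns adenosine to AMP, was at 45.4 or 453.8 TPM and 61.4 or 613.8 TPM. For ADA and ADK the study's published copy of these values carried the lowest position of the mark. SLC29A2, a second transporter, was higher by a factor of 1.52 in MDA PCa 2b.

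Of 5 genes by which a cell releases its own ATP, 4 had a mean of at least 1 TPM. PANX1, LRRC8A and GJA1 were higher by 2-fold or more in RC77 T/E (3 of 4, beside 19.4% of all genes) and none was in MDA PCa 2b (20.0% of all genes), and GJA1 reached this mean only through RC77 T/E. PANX1, the pannexin channel, was at 8.18 or 81.8 TPM in MDA PCa 2b versus 28.5 or 284.7 TPM in RC77 T/E. GJA1, a connexin, was at 0.0717 and 71.2 TPM. LRRC8A, a subunit of the volume-regulated anion channel, was at 1.88, 18.8 or 187.9 TPM in MDA PCa 2b and higher by a factor of 3.77 in RC77 T/E, while PANX2 was at 1.0 and 1.5 TPM. SLC17A9, which loads ATP into vesicles, was at most 0.0367 TPM.

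The G proteins and phospholipases downstream of the P2Y receptors differed in single members. GNAQ, the Gq subunit used by P2RY1 and P2RY2, was at 11.6 TPM in MDA PCa 2b versus 13.6 TPM in RC77 T/E, and GNAS, the Gs subunit of ADORA2A and ADORA2B, was at 395.6 and 516.6 TPM. GNA15, a promiscuous subunit of the Gq family, was at 0.0205 TPM in MDA PCa 2b versus 30.5 TPM in RC77 T/E. The phospholipases PLCB4 and PLCB1 went the other way, PLCB4 at 25.3 and 1.82 TPM and PLCB1 at 3.63 and 0.502 TPM. GNA11, at 1.73 times the level in MDA PCa 2b, and PLCB3, at 1.60 times in RC77 T/E, stayed under 2-fold, and GNA14 and PLCB2 were at most 0.435 TPM. Over all 40 pathway genes besides the 10, 20 had a mean of at least 1 TPM. Of these, 6 were higher by 2-fold or more in RC77 T/E, 5 in MDA PCa 2b and 9 neither, beside 19.4% and 20.0% of all genes. GJA1 and GNA15 reached this mean only through RC77 T/E, and ENPP3, DPP4 and PLCB1 only through MDA PCa 2b. These genes had to differ, though DPP4 and PLCB1 did not have to pass 2-fold. The counts only describe the lists. The median log2 ratio of the 20 genes was 0.35, beside -0.15 over all genes.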

How the data were processed

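RNA-Seq was made from total RNA of untreated RC77 T/E cells and MDA PCa 2b cells as paired-end directional libraries, 1 for each line. The authors deposited 1 table with TPM per locus for both lines, their mean and standard error, Ensembl identifiers and positions. The submitters' processing notes name CASAVA, FastQC 0.11.9, Trimmomatic 0.38, Salmon 1.2.0 and GRCh38 without their roles, and the row identifiers have the form that Cufflinks gives. No other program or annotation release is given in the sources used here.

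The decimal mark is missing from deposited values that are 1 TPM or above and have 3 or more decimals. All positions leaving 1 to 3 digits ahead of the mark were tried. A position was retained if the mean and standard error computed from both lines matched the deposited cells once stripped alike. Of 22704 loci (87 rows that repeat a locus left out), 16212 had 1 position and 6492 had 2 or 3. The step was tested on simulated data. In the part of the study's published copy of this table that was read, 1313 of 1313 loci with 1 position carried that position and 527 of 683 others the lowest, including ADORA2B, ADORA2A, ADA and ADK. Sums and log2 ratios use the lowest position. All TPM summed to between 751124.9 and 2416345.6 in MDA PCa 2b and between 682469.0 and 2140325.7 in RC77 T/E, so the totals are not determined. The design had assumed plain TPM values.

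Loci of one symbol were summed. Expressed means 1 TPM or more. The log2 ratio used a pseudocount of 1 TPM across genes averaging 1 TPM or more, which damps differences of low genes. No test was possible without replicates. The 10 genes and all lists were chosen with earlier results of these data known. All 10 genes are named, and genes of the lists are named where they reached 1 TPM in at least 1 line or belong to a receptor family. Genes named beyond this rule are the remaining list members, given by their level. ADA2 was not analysed here. Overlaps come from GENCODE release 29 on GRCh38, and promoters from RefSeq. Alternatives were other thresholds (0.5 and 5 TPM), a pseudocount of 0.1 TPM, median centring, upper-quartile scaling, the highest position of the mark, the largest locus, no filter and 4-fold. A value counted as changed when it shifted past 1.5 times. The software was Python 3.11.15, numpy 2.4.6, pandas 2.3.3 and matplotlib 3.10.9.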

Additional observations from a re-analysis of the deposited data

How the results depend on the processing

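The count of the 10 genes at 1 TPM or more had a range of 4 to 6 (MDA PCa 2b) or 6 to 9 (RC77 T/E) over thresholds of 0.5 and 5 TPM and the largest locus, within 1.5 times of 6 and 8. P2RY2, NT5E and ADORA2B were past 2-fold in RC77 T/E and P2RX4 in MDA PCa 2b under every alternative run, except that with 4-fold in place of 2-fold the count for MDA PCa 2b was 0, since P2RX4 was 2.78 times as high there. The median log2 ratio of -0.38 became -0.23 when centred on the median of all genes, -0.25 with upper-quartile scaling and 0.086 without the filter on low values, which adds P2RX7 and P2RY6. A pseudocount of 0.1 TPM raised the log2 ratio of P2RX7 to 1.21, of P2RY2 to 4.48 and of P2RY6 to 2.92. Centring moved the share of RC77 T/E among all calls from 49.2% to 57.5%. No paired analysis was possible because the lines are represented by a single library apiece (n = 1). Since depth is unknown, values under 1 TPM, such as those of P2RX7 and P2RY6, have no counting error that can be given.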

Other observations

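P2RX6 and P2RY12 are listed at 0 in MDA PCa 2b, and P2RX3, P2RY13 and P2RY14 in both lines. Whether a listed 0 is an absent transcript or a missing estimate was not tested.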
